A study of Homo sapiens with 6 samples.

Results

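The genes described are 10 classical markers and transcription factors of the epithelial–mesenchymal transition (EMT), taken by symbol from the 23524 genes of the deposited expression table, where each of the 10 was found. They comprised 2 epithelial markers (CDH1 and OCLN), 3 mesenchymal markers (VIM, CDH2 and FN1) and 5 EMT factors (TWIST1, SNAI1, SNAI2, ZEB1 and ZEB2). They were measured in Hep G2, a human liver cancer cell line that grows as an epithelium in culture. Control cells carried an empty lentiviral vector and were compared with cells that a lentivirus made overexpress the spliceosomal GTPase EFTUD2, with 3 RNA-Seq libraries in each group, numbered 1 to 3. The study's methods select stable lines with puromycin, and the sources used here do not describe them as single clones. The study speaks of independent experiments, and the labels do not say whether the libraries of a group came from separate transductions. The p-values thus judge a group difference against the variation among these libraries, and they may not extend to new transductions.

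In EMT, epithelial cells give up their cell–cell junctions and gain the filaments, matrix and motility of mesenchymal cells. E-cadherin (CDH1) and occludin (OCLN) hold epithelial neighbors together at adherens and tight junctions. Vimentin (VIM), N-cadherin (CDH2) and fibronectin (FN1) are the usual signs of the mesenchymal state, although hepatocytes normally secrete fibronectin and express N-cadherin beside E-cadherin. Snail (SNAI1), Slug (SNAI2), ZEB1 and ZEB2 are zinc finger repressors, and TWIST1 is a basic helix–loop–helix factor. The zinc finger factors bind short E-box motifs, and E-cadherin is their best known target.

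As the zinc finger factors read E-boxes, the 250 bases upstream of start sites were searched for the E-box letters CAGGTG and, for the other strand, CACCTG. RefSeq start sites (GRCh38.p14) were held for 6 of the members, and 2 of these (OCLN and ZEB1) had the motif upstream of at least 1 start site, at 4 of 14 start sites in all. Among all 35116 start sites in that table, 17.5% had it. VIM, the mesenchymal marker that differed most between the groups, and OCLN, the epithelial marker with an entry, are printed 5′ to 3′, both on the plus strand, with the motif in capitals. The OCLN sequence, chr5:69492297-69492546, has it 33 bases before the first start site, and the VIM sequence, chr10:17227991-17228240, does not have these letters.
OCLN: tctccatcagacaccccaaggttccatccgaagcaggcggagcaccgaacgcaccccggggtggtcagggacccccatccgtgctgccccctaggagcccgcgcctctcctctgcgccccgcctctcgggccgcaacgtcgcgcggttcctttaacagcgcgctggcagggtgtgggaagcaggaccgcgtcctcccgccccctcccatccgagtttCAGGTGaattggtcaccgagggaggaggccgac
VIM: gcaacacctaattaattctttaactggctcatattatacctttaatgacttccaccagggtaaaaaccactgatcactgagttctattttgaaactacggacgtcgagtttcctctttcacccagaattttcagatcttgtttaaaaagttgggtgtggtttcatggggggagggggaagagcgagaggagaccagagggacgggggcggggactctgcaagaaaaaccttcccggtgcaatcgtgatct

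The study lists qPCR primers for CDH1, VIM and TWIST1, which show the stretch of each mRNA that such an assay reads. The CDH1 pair spanned chr16:68801718-68808439 (GRCh38, GENCODE release 29) and joined coding parts of exons 3 and 4 in a product of 192 bp. Both VIM primers lay in the coding part of exon 2 at chr10:17229685-17229941 (257 bp), and both TWIST1 primers in that of exon 1 at chr7:19116871-19117026 (156 bp), so that genomic DNA would give products of the same length for these pairs. Searched as exact matches in the sense direction, each pair matched transcripts of its own gene and of 0 other genes. This search could not find antisense transcripts, and the VIM product lies within the span of VIM-AS1 on the opposite strand (chr10:17214239-17229985).
CDH1 forward: tcgacacccgattcaaagtgg
CDH1 reverse: ttccagaaacggaggcctgat
VIM forward: tggccgacgccatcaacacc
VIM reverse: cacctcgacgcgggctttgt
TWIST1 forward: gtccgcagtcttacgaggag
TWIST1 reverse: gcttgagggtctgaatcttgct

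Gene positions are those of GENCODE release 29 on GRCh38. Levels are given as FPKM, fragments scaled to transcript length and to the total mapped in the library, as the authors deposited them. Per library the FPKM values summed to between 404342 and 434542. The number of reads behind a value is unknown, and no interval from counts can be given. Fold changes are differences in mean log2(FPKM + 1), EFTUD2-overexpressing minus control, on which the change of a gene with low levels looks smaller than it is. They were tested with limma over the 17222 genes that averaged 0.1 FPKM or more, with Benjamini-Hochberg adjustment. EFTUD2 itself (Entrez gene 9343) gave 41.1, 54.4 and 46.3 FPKM across the controls (replicates 1, 2 and 3, as in all sentences that follow), against 106.6, 102.9 and 109.5 FPKM across the EFTUD2 libraries, which is 1.16 on the log2 scale (standard error 0.12, limma adjusted p = 0.13). EFTUD2 replicate 3 stood apart. Over all genes tested its log2 values differed from those of replicates 1 and 2 with SDs of 0.51 and 0.60, against 0.23 between replicates 1 and 2 and at most 0.36 among the controls.

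Among the members, vimentin differed most between the groups. It was close to 0 in each control library and present in each EFTUD2-overexpressing library, while N-cadherin and fibronectin lay at similar levels in both groups and E-cadherin was slightly higher, not lower, with EFTUD2. Of the 10 members, 9 passed the filter on low values, and TWIST1 did not, with a mean of 0.093 FPKM over the 6 libraries. At an adjusted p under 0.05, 0 of the 9 members were called, as were 0 (0%) of all genes tested. At an unadjusted p under 0.05, 3 members (VIM, CDH1 and SNAI2) were higher and 0 were lower, where 4.4% of all genes tested were higher and 7.9% lower. VIM, SNAI2 and ZEB2 had control means under the filter of 0.1 FPKM and passed it through the EFTUD2 libraries. Without the filter 2 members (VIM and CDH1) had an unadjusted p under 0.05. Over all genes, the share of higher genes at that threshold moved from 35.7% with the values as deposited to 62.5% with libraries scaled by their median ratio. The 2 groups did not overlap for the same 3 members, each higher with EFTUD2, and for 7.92% of all genes tested in that direction, and for 0 members against 19.4% of genes in the lower direction. A count of 3 among 9 chosen genes is too small to read against such shares. The median log2 fold change was 0.13 over the 9 members, which is the value of ZEB2, and -0.07 over all genes tested. These medians were 0.05 and -0.12 with a filter at a mean of 1 FPKM. Without EFTUD2 replicate 3 they were -0.08 and -0.04, so their difference depended on the filter and on that library.

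**Figure D1:**
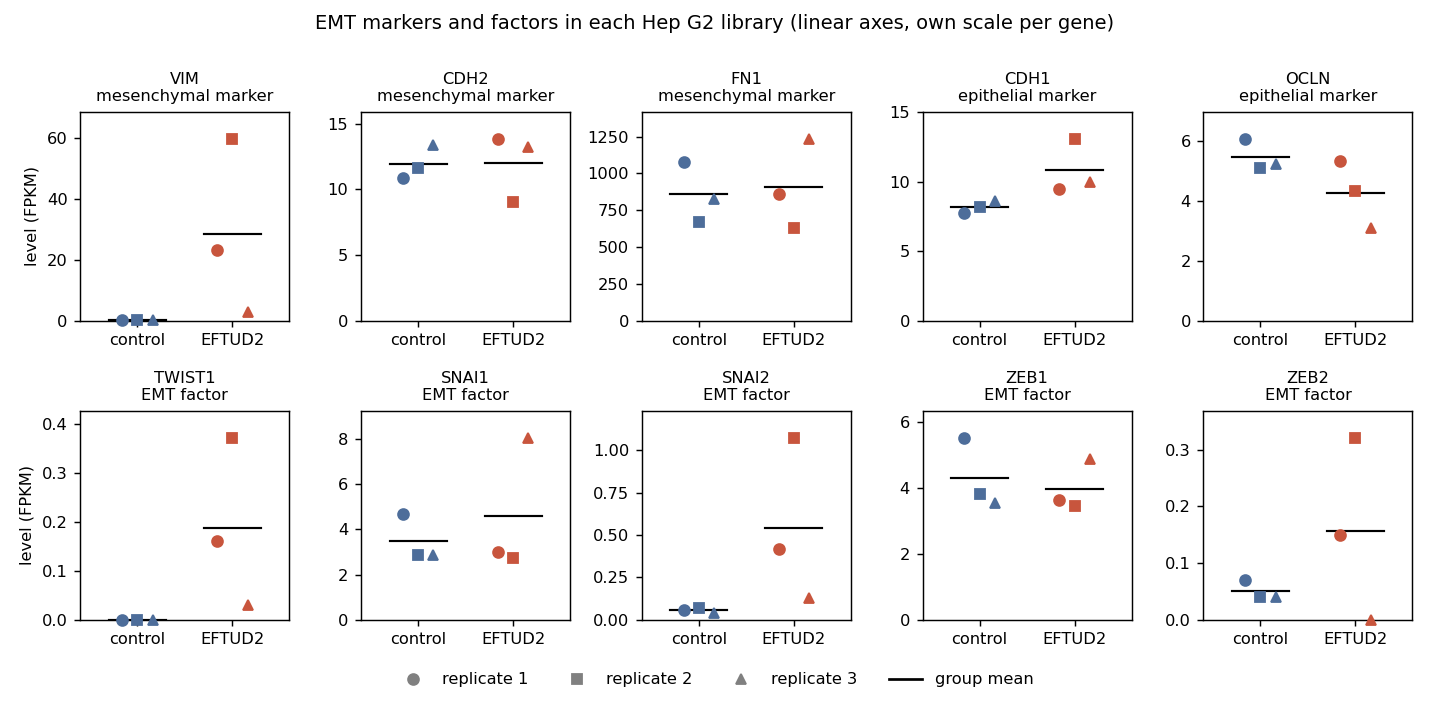
Level of each of the 10 members (FPKM, linear axis from 0, a scale of its own per gene) in the 3 control (blue) and 3 EFTUD2-overexpressing (red) libraries, with the replicate number as the marker and the group mean as a bar. VIM, SNAI2, TWIST1 and ZEB2 were highest in EFTUD2 replicate 2, whereas SNAI1 and FN1 were highest in EFTUD2 replicate 3.

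The levels of the members can be ranked, since FPKM is given per length. In control cells fibronectin, with a mean of 857 FPKM, was far above the other members and above 99.8% of all genes in the table. N-cadherin (11.9 FPKM), E-cadherin (8.16 FPKM) and occludin (5.47 FPKM) followed, and the control libraries of these 3 genes did not overlap. ZEB1 (4.29 FPKM) overlapped with occludin above it and with Snail (3.47 FPKM) below it. Vimentin (0.087 FPKM), Slug (0.057 FPKM) and ZEB2 (0.050 FPKM) overlapped with each other near the bottom, and TWIST1 was listed at 0. In EFTUD2-overexpressing cells the order was the same except that vimentin stood second, at a mean of 28.6 FPKM, that Snail preceded occludin and ZEB1, and that TWIST1 preceded ZEB2. From 2.87 to 59.6 FPKM, the vimentin libraries there spanned those of N-cadherin and E-cadherin, which overlapped with each other. Snail overlapped with occludin there, occludin with ZEB1, Slug with TWIST1 and TWIST1 with ZEB2.

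Vimentin builds the intermediate filaments of mesenchymal cells. VIM (Entrez gene 7431, chromosome 10 from 17228259 to 17237593) was at 0.06, 0.08 and 0.12 FPKM across the controls, against 23.2, 59.6 and 2.87 FPKM across the EFTUD2 libraries. Every EFTUD2 library was thus above every control, but replicate 3 reached 0.048 times the level of replicate 2. The log2 fold change was 4.04 (standard error 0.90, 95% confidence interval 1.89 to 6.18), for which limma gave an adjusted p of 0.35 and the libraries alone an exact two-sided permutation p of 0.1, the smallest that 3 against 3 libraries can give. Without EFTUD2 replicate 3 it was 5.14 with an adjusted p of 0.015, and with weights estimated per library the adjusted p was 0.0034, within a range of 0.0034 to 0.68 over the alternatives. The weights were 4.113 for EFTUD2 replicate 1 and 3.538 for control replicate 3, against 1.165 and 0.121 for EFTUD2 replicates 2 and 3. Control replicates 1 and 2 had 0.48 and 1.019, so the weighted fit rested largely on 1 library of each group. Without EFTUD2 replicate 2 the log2 fold change was 3.16, and with pseudocounts of 0.1 and 0.01 it was 6.44 and 7.41, both beyond that interval. In bulk RNA, fewer cells with a transcript and less of it per cell cannot be told apart.

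N-cadherin is the cadherin that mesenchymal cells use in place of E-cadherin. CDH2 (Entrez gene 1000, chromosome 18 from 27950966 to 28177446) stood at 10.9, 11.6 and 13.4 FPKM across the controls, against 13.8, 9.06 and 13.2 FPKM across the EFTUD2 libraries. The groups overlapped throughout, and the log2 fold change of -0.01 had a 95% confidence interval from -0.43 to 0.42 (adjusted p = 0.98). Its direction turned under 2 other scalings, to 0.13 in both, and to 0.07 without control replicate 3 and 0.17 without EFTUD2 replicate 2.

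Fibronectin is a matrix glycoprotein that liver cells also release into plasma. FN1 (Entrez gene 2335, chromosome 2 from 215360440 to 215436172) was at 1076, 671 and 823 FPKM across the controls, against 859, 627 and 1232 FPKM across the EFTUD2 libraries. Replicate 3 was the highest and replicate 2 the lowest of the 6 libraries. The log2 fold change of 0.05 (95% confidence interval -0.63 to 0.74, adjusted p = 0.93) was -0.20 without EFTUD2 replicate 3, -0.11 without control replicate 2 and -0.21 after quantile normalization.

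E-cadherin is the adhesion molecule of epithelial adherens junctions. CDH1 (Entrez gene 999, chromosome 16 from 68737225 to 68835548) was measured at 7.72, 8.15 and 8.61 FPKM across the controls, against 9.47, 13.1 and 10 FPKM across the EFTUD2 libraries. Each EFTUD2 library lay above each control, by a small margin for replicate 1, with means of 8.16 ± 0.45 and 10.8 ± 1.93 FPKM (SD, n = 3 each). The log2 fold change of 0.36 (95% confidence interval 0.01 to 0.71) had an adjusted p of 0.40 from limma and an exact permutation p of 0.1. It was positive under each alternative, from 0.23 without EFTUD2 replicate 2 to 0.50 after quantile normalization.

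Occludin is a membrane protein of tight junctions. OCLN (Entrez gene 100506658, chromosome 5 from 69492292 to 69558104) was at 6.06, 5.10 and 5.24 FPKM across the controls, against 5.33, 4.34 and 3.10 FPKM across the EFTUD2 libraries. Replicate 1 lay within the control range and replicates 2 and 3 below it. The log2 fold change was -0.32 (95% confidence interval -0.76 to 0.12, adjusted p = 0.45), and -0.15 without EFTUD2 replicate 3, the library with the lowest level.

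**Figure D2:**
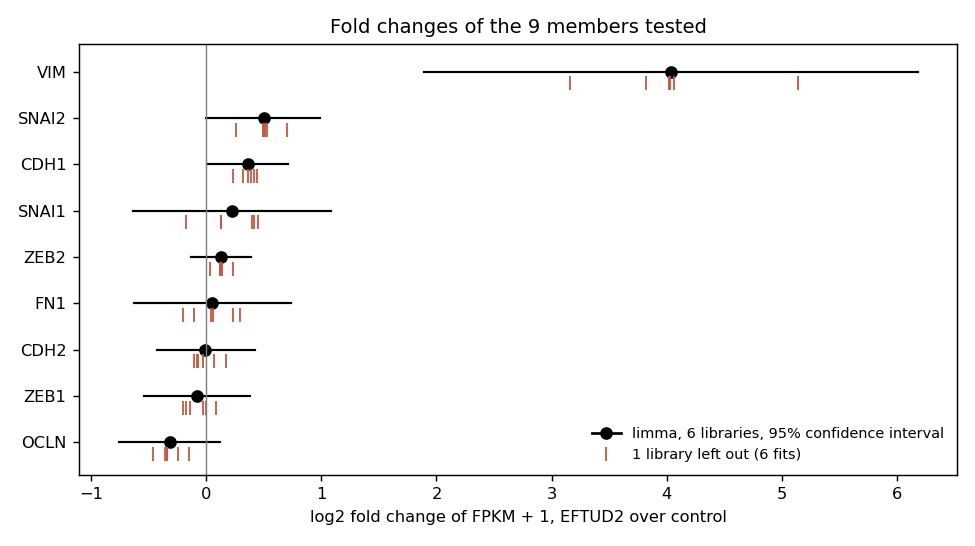
Log2 fold change of FPKM + 1 (horizontal axis) for the 9 members tested, with the 95% confidence interval from limma in black and the 6 values with 1 library left out as red ticks. VIM lay at 4.04 and the other members between -0.32 and 0.50. For SNAI1, FN1, CDH2 and ZEB1 the ticks fall on both sides of 0.

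The balance of cadherins is often read as a ratio, which within a library does not depend on how that library was scaled. The ratio of CDH2 to CDH1 was 1.41, 1.42 and 1.55 in the controls and 1.46, 0.694 and 1.32 in the EFTUD2 replicates. Only EFTUD2 replicate 2 stood below 1, and replicate 1 lay within the control range. The mean log2 ratio was 0.55 ± 0.08 in the controls and 0.14 ± 0.58 in the EFTUD2 libraries (SD, n = 3 each), a difference of -0.41 (exact two-sided permutation test, p = 0.3) that was -0.07 without EFTUD2 replicate 2. The ratio of FN1 to CDH1 was 139, 82.4 and 95.6 against 90.7, 48.1 and 123. Its mean log2 value differed by -0.34 (exact permutation test, p = 0.5), and by 0.04 without EFTUD2 replicate 2.

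Of the EMT factors, 2 were present in all libraries and 3 lay near 0 in the controls. Snail was the one with the widest range among the former. SNAI1 (Entrez gene 6615, chromosome 20 from 49982999 to 49988886) was at 4.67, 2.87 and 2.87 FPKM across the controls, against 3.01, 2.73 and 8.02 FPKM across the EFTUD2 libraries. Replicates 1 and 2 lay at or near the lowest controls, and replicate 3 was above every other library. The log2 fold change of 0.22 (95% confidence interval -0.64 to 1.08, adjusted p = 0.77) was -0.18 without that library.

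ZEB1, like Snail a repressor that binds E-boxes, was at 5.5, 3.81 and 3.55 FPKM across the controls, against 3.62, 3.45 and 4.86 FPKM across the EFTUD2 libraries (ZEB1, Entrez gene 6935, chromosome 10 from 31318495 to 31529814). Control replicate 1 and EFTUD2 replicate 3 were the highest libraries, as for SNAI1 and FN1. The log2 fold change was -0.08 (95% confidence interval -0.54 to 0.38, adjusted p = 0.85). It turned to 0.08 without control replicate 1, to 0.04 with median-of-ratios scaling and to 0.0021 after quantile normalization.

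Slug, the relative of Snail, was low in both groups. SNAI2 (Entrez gene 6591) was at 0.06, 0.07 and 0.04 FPKM across the controls, against 0.42, 1.07 and 0.13 FPKM across the EFTUD2 libraries. No EFTUD2 library fell within the control range (two-sided exact permutation p of 0.1), and the log2 fold change was 0.50 (standard error 0.21, adjusted p = 0.40 from limma). With the library weights it was 0.55 at an adjusted p of 0.048, the lowest of a range up to 0.68. Below 1 FPKM the choice of pseudocount decides the size of this value, which reached 2.62 over the settings tried and was 0.26 without EFTUD2 replicate 2.

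TWIST1 (Entrez gene 7291, chromosome 7 from 19020991 to 19117672) was listed at 0 for all 3 controls, and its EFTUD2 libraries had 0.16, 0.37 and 0.03 FPKM. Every EFTUD2 library was above the controls (exact permutation test, two-sided p = 0.1), replicate 3 by 0.03 FPKM only. Without the filter on low values its log2 fold change was 0.24 (standard error 0.10, adjusted p = 0.47). ZEB2 (Entrez gene 9839, chromosome 2 from 144364364 to 144524583) was at 0.07, 0.04 and 0.04 FPKM across the controls, against 0.15, 0.32 and 0 FPKM across the EFTUD2 libraries. Its replicates 1 and 2 were above the controls and replicate 3 was listed below them, with a log2 fold change of 0.13 (95% confidence interval -0.13 to 0.39, adjusted p = 0.57) that was 0.03 without EFTUD2 replicate 2. Antisense genes overlap CDH1, CDH2, OCLN, TWIST1, VIM, ZEB1 and ZEB2 in GENCODE, and whether the counting used strand is not given in the sources used here, so that reads of such partners cannot be told apart from those of the members.

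The 4 members near 0 in the controls (VIM, SNAI2, TWIST1 and ZEB2) shared 1 order of the EFTUD2 libraries, with replicate 2 highest and replicate 3 lowest. The level of replicate 1 was 0.39 times that of replicate 2 for VIM, 0.39 times for SNAI2, 0.43 times for TWIST1 and 0.47 times for ZEB2. The level of replicate 3 was 0.048, 0.12, 0.081 and 0 times that of replicate 2 in the same order of genes. EFTUD2 mRNA did not follow this order, at 1.04 and 1.06 times replicate 2 in replicates 1 and 3. Nor did CDH2, FN1, SNAI1 or ZEB1, which were lowest in replicate 2 among the EFTUD2 libraries. This order was looked at after the values were seen. It held for 34.8% of the 1364 genes tested that were higher without overlap. That share is not to be set against these 4 members, since ZEB2 overlapped and TWIST1 was not tested. Of the 4 members higher without overlap, tested or not, 3 had this order and CDH1 did not.

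**Figure D3:**
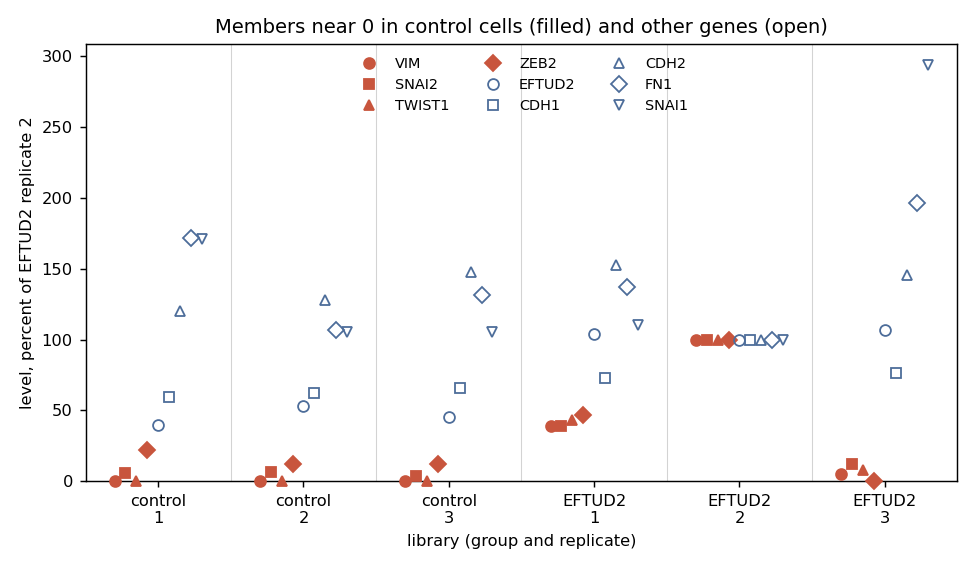
Level in each of the 6 libraries as a percent of the level in EFTUD2 replicate 2 (linear axis), for the 4 members near 0 in control cells (filled red) and for EFTUD2, CDH1, CDH2, FN1 and SNAI1 (open blue). The red symbols lie between 39.0% and 46.9% in EFTUD2 replicate 1 and at no more than 12.1% in EFTUD2 replicate 3, whereas EFTUD2 mRNA lies near 100% in all 3.

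Markers of the labelled cell type were present. All 10 hepatocyte markers, among them ALB, AFP and HNF4A, had a control mean of at least 1 FPKM. Their summed level was 6910 to 10600 FPKM across the controls, against 9260, 9270 and 14100 FPKM in EFTUD2 replicates 1 to 3. Only replicate 3 exceeded the control range. APOB and SERPINA1 were higher without overlap, and 0 hepatocyte markers were lower. Of 9 markers of squamous and basal epithelium, 3 were higher and 2 lower without overlap. The higher ones included TP63, at 0 in the controls and 0.01 FPKM in each EFTUD2 library. Of all genes tested, 7.92% were higher and 19.4% lower without overlap, and lists of 8 to 10 markers are too small to read against such shares. The summed level of the 9 squamous and basal markers was 39.3 to 57.3 FPKM across the controls, against 113, 199 and 40.3 FPKM in EFTUD2 replicates 1 to 3. KRT17, a keratin of basal and stratified epithelium, had the library order of vimentin, at 1.12 to 1.80 FPKM across the controls, against 66.9, 135.1 and 9.29 FPKM across the EFTUD2 libraries. It made up most of the summed level in EFTUD2 replicates 1 and 2. KRT14 had this order too, at 0.01 FPKM or less in the controls and 0.29, 0.83 and 0.09 FPKM with EFTUD2. KRT15 (0.95 to 1.13 FPKM, against 0.32 to 0.46 FPKM) and S100A2 (3.57 to 4.41 FPKM, against 0.54 to 1.29 FPKM) were lower without overlap. SFN overlapped, at 33.5 to 50.1 FPKM across the controls, against 29.9 to 62.1 FPKM. KRT5 was listed at 0 in every library, and KRT6A, TP63 and DSG3 stayed under 0.1 FPKM. The 10 fibroblast markers summed to 0.53 to 1.65 FPKM across the controls, against 2.92, 4.91 and 2.35 FPKM across the EFTUD2 libraries, and 1 was higher without overlap. COL1A2 was listed at 0 throughout, and DCN, PDGFRA, THY1, FAP and POSTN stayed under 0.1 FPKM. The collagen genes COL3A1 and COL1A1 and the proteoglycan gene LUM had the library order of vimentin at low levels. COL3A1 was listed at 0 in the controls, with 0.62, 1.49 and 0.14 FPKM across the EFTUD2 libraries. COL1A1 had no more than 0.15 FPKM in a control, with 0.78, 2.05 and 0.11 FPKM in the EFTUD2 libraries, and LUM no more than 0.01 FPKM, with 0.35, 0.56 and 0.01 FPKM. PDGFRB did not have this order, at 1.43, 0.41 and 1.05 FPKM across the controls, against 1.10, 0.68 and 2.07 FPKM across the EFTUD2 libraries. It made up most of the fibroblast sum in each control and in EFTUD2 replicate 3. The 8 endothelial markers summed to 2.47 to 4.30 FPKM across the controls, against 2.15 to 3.19 FPKM with EFTUD2, with KDR, TEK and ERG under 0.1 FPKM. CDH5 (0.06 to 0.08 FPKM, against 0.19 to 0.28 FPKM) and VWF (0.15 to 0.33 FPKM, against 0.46 to 0.60 FPKM) were higher without overlap, and PECAM1 (0.85 to 1.19 FPKM, against 0.54 to 0.81 FPKM) was lower. TIE1 (0.96 to 2.62 FPKM, against 0.83 to 1.42 FPKM) and CLDN5 (0.13 to 0.17 FPKM, against 0.03 to 0.26 FPKM) overlapped. The 8 macrophage markers summed to 1.08 to 3.25 and 2.13 to 3.74 FPKM, with TYROBP at 0 and PTPRC, CD163 and CSF1R under 0.1 FPKM. CD14 was higher without overlap, at 0.60 to 1.03 FPKM across the controls, against 1.41 to 2.51 FPKM with EFTUD2. AIF1 (0.33 to 1.51 FPKM, against 0.28 to 1.13 FPKM) and ITGAM (0.10 to 0.82 FPKM, against 0.02 to 0.10 FPKM) had lower means with EFTUD2 and overlapped. CYBB overlapped too, at 0 in the controls and 0.05, 0.12 and 0 FPKM across the EFTUD2 libraries. The part of other cell types in the levels of vimentin, Slug and TWIST1 was not tested.

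Around the members, 9 lists of 141 genes in all were described, of which 123 were tested and 0 were called at an adjusted p under 0.05. Of these, 43 (35.0%) had a positive log2 fold change, as did 37.3% of all genes tested. At an unadjusted p under 0.05, 11 (8.94%) were higher and 20 (16.3%) lower, where all genes gave 4.4% and 7.9%. With median-of-ratios scaling the list genes gave 12 higher and 10 lower, so the lean to lower values depended on the scaling. The groups did not overlap for 12 list genes that were higher (9.76%, against 7.92% of all genes) and 30 that were lower (24.4%, against 19.4%). From each list the 3 genes with the largest fold change are given, whatever their p. For 7 of them (CLDN6, KRT19, SOX4, CD44, FSTL1, ITGA5 and LOXL2) the adjusted p without EFTUD2 replicate 3 is added. These 7 were picked because that value was under 0.05, and the other genes named by their fold change had 0.072 or more in that fit. Over the alternatives the adjusted p of the 7 ranged from 0.0018 (SOX4, array weights) to 0.68.

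E-cadherin acts through catenins, which tie it to actin. Of the 7 genes of the cadherin–catenin complex, 1 was higher and 6 lower, with a median log2 fold change of -0.07, the same as over all genes. P-cadherin (CDH3) was at 0.02 to 0.08 FPKM across the controls, against 0.20, 0.49 and 0.40 FPKM with EFTUD2 (log2 fold change 0.37, adjusted p = 0.40). Vinculin (VCL), which strengthens the link to actin, was at 19.8 to 22.4 FPKM across the controls, against 16.5 to 18.8 FPKM with EFTUD2 (log2 fold change -0.24, adjusted p = 0.41). CTNNA1, alpha-catenin, had a log2 fold change of -0.10 (adjusted p = 0.60), which turned to 0.04 with median-of-ratios scaling.

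Of the 20 tight junction genes, partners of occludin, 4 were higher and 16 lower (median log2 fold change -0.19). Groups did not overlap for 6 of the lower and 2 of the higher genes, where 19.4% and 7.92% of all genes did so. CLDN6, a claudin of embryonic and tumor epithelium, was at 38.4, 29.5 and 30.8 FPKM across the controls, against 16.1, 15.7 and 21.6 FPKM with EFTUD2, so that all EFTUD2 libraries were lower (log2 fold change -0.86, standard error 0.16, adjusted p = 0.28). Its adjusted p was 0.038 without EFTUD2 replicate 3. CLDN3 had a log2 fold change of 0.57 (adjusted p = 0.41), with 2.64 FPKM in EFTUD2 replicate 3 and at most 1.02 FPKM elsewhere. CLDN7, near 0 in the controls, was at 0.40, 1.01 and 0.12 FPKM with EFTUD2 (log2 fold change 0.53, adjusted p = 0.40), the order that VIM showed.

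Of the 18 tested genes of epithelial identity (21 listed), 6 were higher and 12 lower, with a median of -0.08. Keratin 19 (KRT19), a filament of bile duct and progenitor epithelium, was at 314, 358 and 373 FPKM across the controls, against 163, 153 and 103 FPKM with EFTUD2. The groups lay far apart, and limma gave -1.34 on the log2 scale with a standard error of 0.19 (adjusted p = 0.21, and 0.030 without EFTUD2 replicate 3). ELF3, an epithelial ETS factor, had a log2 fold change of 0.87 (adjusted p = 0.41), with overlap and the highest level, 34.6 FPKM, in EFTUD2 replicate 3. The mucin MUC1 was at 0.09 FPKM or less across the controls, against 0.75, 2.58 and 0.16 FPKM with EFTUD2 (log2 fold change 0.86, adjusted p = 0.40).

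Among the other EMT factors, 14 of 20 were tested, 6 higher and 8 lower. SOX4, a factor that acts upstream of EZH2 in EMT, was at 15.8, 14.3 and 14.6 FPKM across the controls, against 5.58, 5.16 and 3.09 FPKM with EFTUD2. Each EFTUD2 library was well below each control, and the log2 fold change of -1.53 (standard error 0.20) had an adjusted p of 0.19, and of 0.015 without EFTUD2 replicate 3. FOSL1, an AP-1 subunit, was at 12.1 to 18.5 FPKM across the controls, against 5.96 to 8.27 FPKM with EFTUD2 (log2 fold change -0.97, adjusted p = 0.27). SNAI3 was at 0.75 to 1.07 FPKM across the controls, against 0.94, 1.14 and 3.51 FPKM in EFTUD2 replicates 1 to 3 (log2 fold change 0.45, adjusted p = 0.51). Like SNAI1, it was highest in replicate 3.

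Of the 20 mesenchymal markers tested (24 listed), 12 were higher and 8 lower, and the median was 0.08. Groups did not overlap for 4 of the higher and 3 of the lower genes, where 7.92% and 19.4% of all genes did so. The lower ones were TAGLN (23.1 to 29.4 FPKM across the controls, against 6.80 to 17.1 FPKM with EFTUD2), CALD1 (52.4 to 62.6, against 41.2 to 49.7 FPKM) and TPM1 (39.3 to 47.3, against 22.0 to 34.1 FPKM). The hyaluronan receptor CD44 was at 0.03 to 0.07 FPKM across the controls, against 3.73, 8.13 and 0.65 FPKM with EFTUD2 (log2 fold change 1.98, adjusted p = 0.40). FSTL1, a secreted glycoprotein, was at 0.10 FPKM or less across the controls, against 3.57, 7.73 and 0.33 FPKM (log2 fold change 1.82, adjusted p = 0.40). Both followed the order of vimentin, and both had an adjusted p of 0.030 without EFTUD2 replicate 3. CTGF, a matricellular protein, was at 25.9 to 66.6 FPKM across the controls, against 59.4, 37.4 and 308 FPKM with EFTUD2, where the log2 fold change of 1.08 (adjusted p = 0.51) rested on replicate 3 and was 0.18 without it.

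Of the 6 fibronectin receptor genes tested, 4 were higher and 2 lower. ITGA5, the alpha subunit of the main fibronectin receptor, was at 0.36 to 0.51 FPKM across the controls, against 5.30, 10.2 and 0.58 FPKM with EFTUD2 (log2 fold change 1.73, adjusted p = 0.40, and 0.030 without EFTUD2 replicate 3). ITGAV was at 32.5 to 36.2 FPKM across the controls, against 23.7 to 29.3 FPKM with EFTUD2 (log2 fold change -0.33, adjusted p = 0.40). ITGB5 had a log2 fold change of -0.29 (adjusted p = 0.40), also without overlap.

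TGF-beta is the best studied inducer of EMT, and of its 14 genes tested 5 were higher and 9 lower, with a median of -0.03. The largest differences were those of the co-receptor ENG (log2 fold change 0.49, adjusted p = 0.43), the inhibitor SKIL (-0.27, adjusted p = 0.46) and the receptor TGFBR2 (-0.27, adjusted p = 0.45), and the groups overlapped for all 3. Of the 15 cofactors and turnover factors of Snail and ZEB, 3 were higher and 12 lower (median -0.14). LOXL2, which stabilizes Snail, was at 0.29 to 0.54 FPKM across the controls, against 2.43, 4.81 and 0.45 FPKM with EFTUD2 (log2 fold change 1.14, adjusted p = 0.40, and 0.047 without EFTUD2 replicate 3). CTBP2, a corepressor of ZEB1, was at 0.15 to 0.30 FPKM and at 1.18, 2.58 and 0.32 FPKM (log2 fold change 0.84, adjusted p = 0.40). The methyltransferase PRMT5 was at 91.0 to 108 FPKM across the controls, against 79.2, 77.1 and 43.7 FPKM with EFTUD2 (log2 fold change -0.64, adjusted p = 0.40).

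Among the other filament genes and linkers, companions of vimentin, 9 of 11 were tested, 2 higher and 7 lower, with a median of -0.25. Nestin (NES), a filament of progenitor cells that assembles with vimentin, was at 20.1, 14.5 and 14.5 FPKM across the controls, against 8.86, 5.78 and 9.43 FPKM with EFTUD2. It was thus lower in each EFTUD2 library (log2 fold change -0.95, standard error 0.21, adjusted p = 0.35). The plakins EVPL and PPL, which anchor filaments at junctions, had log2 fold changes of -0.50 and -0.43 (adjusted p = 0.45 and 0.40), each without overlap. EVPL was at 7.39 to 8.09 FPKM across the controls, against 6.59, 7.05 and 2.87 FPKM with EFTUD2, and its value was -0.16 without EFTUD2 replicate 3.

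Leaving out 1 library moved further log2 fold changes of named list genes by over 1.5 times. Without EFTUD2 replicate 3, PRMT5 was at -0.36, CLDN3 at 0.28, ELF3 at 0.44, SNAI3 at 0.07 and TGFBR2 at -0.16. Without EFTUD2 replicate 2, FSTL1 was at 1.21, ITGA5 at 1.12, LOXL2 at 0.68, CTBP2 at 0.49, MUC1 at 0.42, CLDN7 at 0.31, ENG at 0.21 and CTGF at 1.69. SNAI3 was at 0.68 without EFTUD2 replicate 1, ITGB5 at -0.18 without control replicate 1 and SKIL at -0.14 without control replicate 2.

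**Figure D4:**
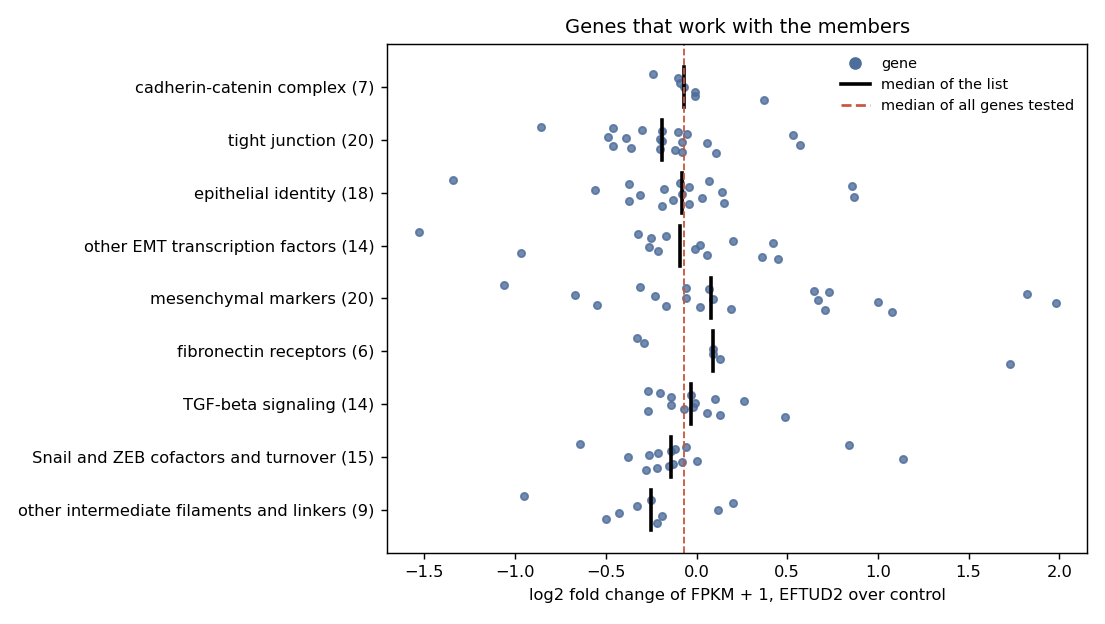
Log2 fold change of FPKM + 1 (horizontal axis) of each gene tested in the 9 lists, with the number tested in parentheses, the list median as a black bar and the median of all genes tested, -0.07, as a dashed line. The list medians lie between -0.25 and 0.09, and a few genes, such as CD44 at 1.98 and SOX4 at -1.53, lie far from them.

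Of the 12 list genes that were higher without overlap, 8 (66.7%) had the order of vimentin, with EFTUD2 replicate 2 highest and replicate 3 lowest, against 34.8% of all such genes. Among the 12, CDH3, CLDN7, MUC1, COL3A1, CD44, FSTL1 and PRPH had control means under 0.1 FPKM and passed the filter through the EFTUD2 libraries. The order was first seen in the members, so both shares are a description only. The genes whose profile over the 6 libraries was most like that of a member were sought among 13769 others with at least 1 FPKM in a library. For VIM these were HOTS, LDHB and SLPI, with Pearson r of 0.9994, 0.9994 and 0.9992 on the log2 scale. LDHB, a subunit of lactate dehydrogenase, had 24.99, 53.3 and 2.67 FPKM across the EFTUD2 libraries and no more than 0.13 FPKM in a control. SLPI, a secreted protease inhibitor, was at 11.03, 23.5 and 1.58 FPKM and at 0.17 FPKM or less in the controls. HOTS lies opposite to H19, whose reads cannot be told from its own without strand. For SNAI2 the most alike were ACKR3 (0.9992), FOXF1 (0.9991) and 1 unnamed transcript. For FN1 they were MAML2 (0.9958), PLD1 (0.9955) and TMEM41B (0.9929), and for SNAI1 CDC42EP5 (0.9978), GPC2 (0.9973) and an unnamed transcript. CAMKK1, SLC25A18 and GNAL were closest to CDH1 (0.9893, 0.9870 and 0.9856), and SWT1, ZNF439 and JAM3 to OCLN (0.9964, 0.9956 and 0.9927). MTR, DPY19L3 and MROH8 were closest to CDH2 (0.9868, 0.9631 and 0.9507) and PER2 (0.9968), before 2 unnamed transcripts, to ZEB1. With 6 libraries shared by all genes, such values are a description only. An r over 0.99 was reached by 97 genes with SNAI2, 33 with SNAI1 and 24 with VIM. SNAI2, ACKR3 and FOXF1 reached 1 FPKM in EFTUD2 replicate 2 only, so they entered this search through that library.

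Between the members themselves, SNAI2 correlated with VIM at 0.94 and CDH1 with VIM at 0.88 on the log2 scale over the 6 libraries. CDH1 correlated with SNAI2 at 0.91, whereas SNAI1 and FN1 correlated with VIM at -0.22 and -0.34. SNAI1 correlated with FN1 at 0.89 and with ZEB1 at 0.79. These points share libraries and their scaling, and they include the difference between the groups.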

How the data were processed

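RNA-Seq of 6 Hep G2 libraries, 3 control and 3 EFTUD2-overexpressing, was analysed. The authors deposited FPKM per gene and library, rounded to 2 decimals, and the submitters' processing notes name HISAT2, Bowtie2, RSEM and DESeq2 and the build hg38, without versions. Libraries of poly-A RNA were read on a BGISEQ-500 instrument. Counts were not used here, and read depth is unknown: among genes at 0.05 to 0.5 FPKM, at most 5.9% shared 1 ratio to control replicate 1, so no common step was found. Symbols shown as dates (26) were replaced through their Entrez numbers, and 18449 of 18762 such numbers matched the NCBI gene table (GRCh38.p14).

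On log2(FPKM + 1), 17222 genes averaging 0.1 FPKM or more were compared with limma 3.58.1 (lmFit, eBayes with trend, R 4.3.3) at an adjusted p under 0.05. The fit was tested on simulated data, with independent noise of the same spread in each library of a gene. Known changes were put only into genes above a minimum mean level. The simulation thus does not cover a departing library or genes near 0 in the controls. Single values were compared by exact two-sided permutation tests (scipy 1.17.1). Figures were drawn with matplotlib 3.10.9.

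The members and lists were chosen with earlier results of these data known. Named are all 10 members and EFTUD2, the 3 genes of each list with the largest absolute log2 fold change among those tested, and, for members with at least 1 FPKM in a library, the 3 genes of highest Pearson r. Cell type markers are named where listed at 0 or under 0.1 FPKM throughout. KRT17, KRT14, KRT15, S100A2, SFN, ALB, AFP, HNF4A, APOB, SERPINA1, COL3A1, COL1A1, LUM, PDGFRB, CDH5, VWF, PECAM1, TIE1, CLDN5, CD14, AIF1, ITGAM and CYBB were added after their values were seen. So were the mesenchymal markers TAGLN, CALD1 and TPM1. Of the squamous and basal markers, 1 is not reported here and is in no sum or count. Alternatives were other pseudocounts (0.1 and 0.01), filters (none, or a mean of 1 FPKM) and scalings (median of ratios, quantile, common sum), robust empirical Bayes, array weights gene by gene, the replicate number as a block, and each library left out.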

Additional observations from a re-analysis of the deposited data

How the results depend on the processing

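With array weights estimated gene by gene, 1355 genes were called (725 higher, 630 lower), among them 2 members (VIM and SNAI2) and 24 list genes. That fit rested largely on EFTUD2 replicate 1 and control replicate 3, which had the largest weights. With 1 library left out, calls ranged from 0 to 131 over all genes, 0 to 1 among the members (VIM) and 0 to 7 among the list genes, and all of these came without EFTUD2 replicate 3. The other alternatives gave 0 calls, the replicate block included. The numbers were not taken as pairs, since same-numbered libraries deviated from their group means with correlations of -0.299, 0.353 and -0.094, and not every library correlated best with its own number. Log2 fold changes turned sign with median-of-ratios scaling for CDH2 (0.13), ZEB1 (0.04) and CTNNA1 (0.04), with quantile normalization for CDH2 (0.13), FN1 (-0.21) and ZEB1 (0.0021), and with array weights for FN1 (-0.0023). With 1 library left out they ranged from -0.11 to 0.17 for CDH2, -0.20 to 0.29 for FN1, -0.20 to 0.08 for ZEB1 and -0.18 to 0.45 for SNAI1, and the log2 ratio of FN1 to CDH1 from -0.64 to 0.04. The cause of these changes was not tested. The directions of VIM, CDH1, OCLN, SNAI2, ZEB2 and EFTUD2 held under each alternative that tested them. Values under about 0.1 FPKM rest on an unknown number of reads.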
